A study of Mus musculus with 10 samples.

Results

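The unfolded protein and stress response genes described here are 10 genes chosen by name, *Atf4*, *Ddit3*, *Xbp1*, *Hspa5*, *Atf3*, *Ppp1r15a*, *Trib3*, *Canx*, *Calr* and *Herpud1*, out of 55450 genes of the GENCODE M21 annotation of the mouse genome build mm10. They were chosen with earlier results of these data known. For each of the 10 genes, the promoter (within 2 kb of any annotated transcription start site, TSS) and the gene body were searched for peaks. The peaks were those of the RNA-binding protein Qki-5, RNA polymerase II (Pol II) and the sterol-regulated transcription factor Srebp2. The data were 6 peak lists from chromatin immunoprecipitation followed by sequencing (ChIP-seq), 1 library for each of 3 antibodies in *Qk*-/- cells and in WT cells. The labels give the cells of both genotypes as oligodendrocytes obtained in culture from neural stem cells (NSCs). By the methods, the NSCs came from brains of newborn pups that carried a tamoxifen-inducible Cre under the *Nestin* promoter and loxP-flanked *Qk*, and the knockout was made in the culture dish with 4-hydroxytamoxifen. The labels give a hybrid of FvB and C57BL/6 as the strain of all samples, but the mice of the same study are elsewhere described as pure C57BL/6J. All cells were differentiated with the thyroid hormone T3. No separate source of WT NSCs is described, and whether the WT cells met tamoxifen or its vehicle is not given in the sources used here. Cells at passage 7 gave the Pol II and Qki-5 libraries, with 1 input library in common per genotype, and cells at passage 8 gave the Srebp2 libraries, with separate inputs.

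The unfolded protein response is the program by which cells answer an overload of unfolded protein in the endoplasmic reticulum (ER). Its sensors Perk, Ire1 and Atf6 act through phosphorylation of the translation factor eIF2, through splicing of the *Xbp1* mRNA and through cleavage of Atf6 by the proteases that also release Srebp2 from its membrane precursor. Phosphorylation of eIF2 lowers translation in general while favoring translation of Atf4, and other stresses, such as lack of amino acids or heme, use the same step. Myelinating oligodendrocytes make large amounts of membrane protein and lipid, which passes through the ER.

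The lists held 427 Qki-5 peaks in *Qk*-/- cells and 7539 in WT cells, 12835 Pol II peaks in *Qk*-/- cells and 32280 in WT cells, and 28 Srebp2 peaks in *Qk*-/- cells and 77 in WT cells. The paper reports many more Qki-5 and Srebp2 peaks in differentiated oligodendrocytes than these lists hold, and the reason was not tested. With 1 library per list, no value has a replicate error and no test was made between genotypes. Read totals are not in the lists, so depth is unknown, and fold enrichment (the pileup at a summit over the local background of the input) was compared between lists only as a rank. A WT peak was counted as kept when a *Qk*-/- peak of the same antibody overlapped it by at least 1 bp. At the *Qk* promoter itself, no Qki-5 peak was called in *Qk*-/- cells and 1 of 8.13-fold was called in WT cells, and Pol II was at 9.48-fold in *Qk*-/- cells and 14.9-fold in WT cells. A promoter peak does not check the deletion of exon 2. Of 9 oligodendrocyte markers examined here, *Cnp* alone had a Pol II promoter peak, in both genotypes, and *Mbp*, *Mag*, *Mog* and *Myrf* were among those without. Pol II was called at 4 of 6 precursor markers in *Qk*-/- cells and 5 of 6 in WT cells. It was called at 7 of 8 NSC and astrocyte markers in each genotype. Neuron markers had 1 of 6 in *Qk*-/- cells and 2 of 6 in WT cells, and microglia markers 0 of 6 in both. Of protein-coding genes, 46.5% in *Qk*-/- cells and 54.1% in WT cells had such a peak. The WT peak counted for *Gfap* had its summit 16274 bp from the nearest TSS. That of *Aqp4*, 1168 bp downstream, was not overlapped by a *Qk*-/- peak. Individual Pol II and Qki-5 peaks carry names starting with mNSC, while Srebp2 peak names start with OL. The cell state of the Pol II and Qki-5 libraries is thus taken from the labels and was not settled by the data.

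Pol II occupied nearly all of the 10 promoters in both genotypes, whereas Qki-5 and Srebp2 were seen at some of them and mostly in WT cells. Pol II peaks were called at 9 promoters in *Qk*-/- cells, the exception being *Trib3*, and at all 10 in WT cells. The background was 23.0% of all genes in *Qk*-/- cells and 28.4% in WT cells, and among protein-coding genes 46.5% in *Qk*-/- cells and 54.1% in WT cells. Qki-5 was called at 1 promoter, *Atf4*, in *Qk*-/- cells, where 0.503% of all genes had a peak. In WT cells, it was called at 5 promoters, *Atf4*, *Ddit3*, *Hspa5*, *Atf3* and *Calr*, beside 10.2% of all genes, 19.4% of protein-coding genes and 34.1% of genes with a Pol II promoter peak. Srebp2 was called at *Atf4* in *Qk*-/- cells, and at *Atf4* and *Canx* in WT cells, where the background was 0.0577% of all genes in *Qk*-/- cells and 0.15% in WT cells.

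**Figure D1:**
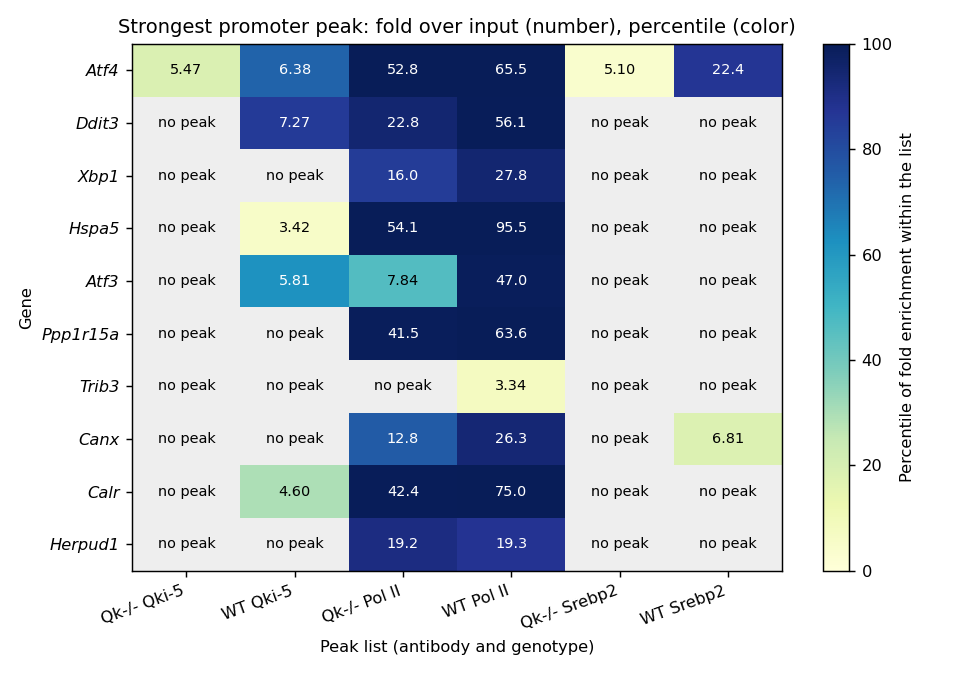
Strongest promoter peak of each of the 10 genes (rows) in each of the 6 peak lists (columns). The number is the fold enrichment over input, the color is the percentile of that fold within its list, and gray marks promoters without a peak. The *Atf4* row is filled in all 6 lists, and the *Trib3* row is filled for WT Pol II alone, at 3.34-fold.

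The Pol II peaks were among the strong ones of their lists. The median percentile of the members with a peak, with 100 the strongest peak of a list, was 94.8 in *Qk*-/- cells and 99.3 in WT cells, against 63.0 in *Qk*-/- cells and 82.1 in WT cells for all genes with a Pol II promoter peak. The 5 WT Qki-5 peaks had a median percentile of 61.8, against 46.7 for all WT promoters with a Qki-5 peak. They ran between the 1065th place (*Ddit3*) and the 7124th place (*Hspa5*) of 7539, so that the members were spread over much of that list.

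*Atf4* (chr15:80255184-80257541, plus strand), the transcription factor translated when eIF2 is phosphorylated, was the single gene of 55450 with a promoter peak in all 6 lists. This held under each of the 7 other definitions of a promoter or a peak that were tried. Its Pol II peak was at 52.8-fold in *Qk*-/- cells, place 35 of 12835, and at 65.5-fold in WT cells, place 87 of 32280. Both genotypes thus had *Atf4* in the top percent of the Pol II list. Its Srebp2 peak was at 5.10-fold in *Qk*-/- cells, the last place of 28, and at 22.4-fold in WT cells, place 11 of 77. The Srebp2 peak spanned 152 bp in *Qk*-/- cells and 998 bp in WT cells. Qki-5 was likewise called over a short stretch of 149 bp in *Qk*-/- cells, at 5.47-fold and place 345 of 427, and over 1051 bp in WT cells, at 6.38-fold and place 1992 of 7539. The *Qk*-/- Qki-5 peak lay inside the WT peak, with the summits 61 bp apart. Whether a peak called with the Qki-5 antibody in *Qk*-/- cells reflects Qki-5 protein was not tested, so the call does not show that Qki-5 stayed at *Atf4*.

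In both genotypes, the summits followed the same order along the *Atf4* promoter, with Srebp2 first, then Qki-5, then Pol II. The Srebp2 summit was 27 bp upstream of the TSS in *Qk*-/- cells and 64 bp upstream in WT cells. The Qki-5 summit was 130 bp downstream of the TSS in *Qk*-/- cells and 191 bp downstream in WT cells, and the Pol II summit 391 bp downstream in *Qk*-/- cells and 375 bp downstream in WT cells. Qki-5 and Pol II summits thus lay in the annotated 5′ untranslated region in both genotypes, and Srebp2 summits lay before the gene. In all, 47 genes had WT promoter peaks of all 3 proteins, and *Atf4* was in 7th place among them by Srebp2 fold. Of these 47 genes, 44 had a Pol II promoter peak, 10 a Srebp2 promoter peak and 1, *Atf4*, a Qki-5 promoter peak in *Qk*-/- cells.

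The stretch before the *Atf4* start that holds the Srebp2 summits is shown with its CCAAT boxes in capitals. The CCAAT box is the letters CCAAT, bound by the factor NF-Y, which is known to cooperate with Srebp2 and with Atf6.
Atf4 promoter, chr15:80255034-80255183, plus strand: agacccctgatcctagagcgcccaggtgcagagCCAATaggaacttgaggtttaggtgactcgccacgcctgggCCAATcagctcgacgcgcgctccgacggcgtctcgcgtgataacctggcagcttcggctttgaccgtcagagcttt
The sequence is from RefSeq, build GRCm38.p6, as are all those below. The WT Srebp2 summit was 8 bp from the nearer of the boxes, and the *Qk*-/- summit 45 bp from it. The sterol element (TCACNCCAC, searched on both strands) had no match in the 300-base promoter windows (250 bases before the RefSeq start, 50 from it on) of any of the 10 genes, beside 1.24% of 32851 windows. A CCAAT box was present in the windows of 7 of the 10 genes, beside 37.4% of all windows.

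*Canx* (chr11:50293961-50325673, minus strand) was the other gene with Srebp2. It encodes calnexin, the membrane-bound lectin chaperone that holds newly made glycoproteins in the ER. No Srebp2 peak was called there in *Qk*-/- cells, and 1 of 6.81-fold, place 64 of 77 and 178 bp wide, in WT cells. Its summit was 66 bp upstream of the TSS, 2 bp from a CCAAT box. No Qki-5 peak was called at *Canx* in either genotype, and 22 of all genes had its combination of Pol II in both genotypes, Srebp2 in WT cells and nothing else. Pol II at *Canx* was at 12.8-fold in *Qk*-/- cells, place 3147 of 12835, and at 26.3-fold in WT cells, place 1936 of 32280.

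**Figure D2:**
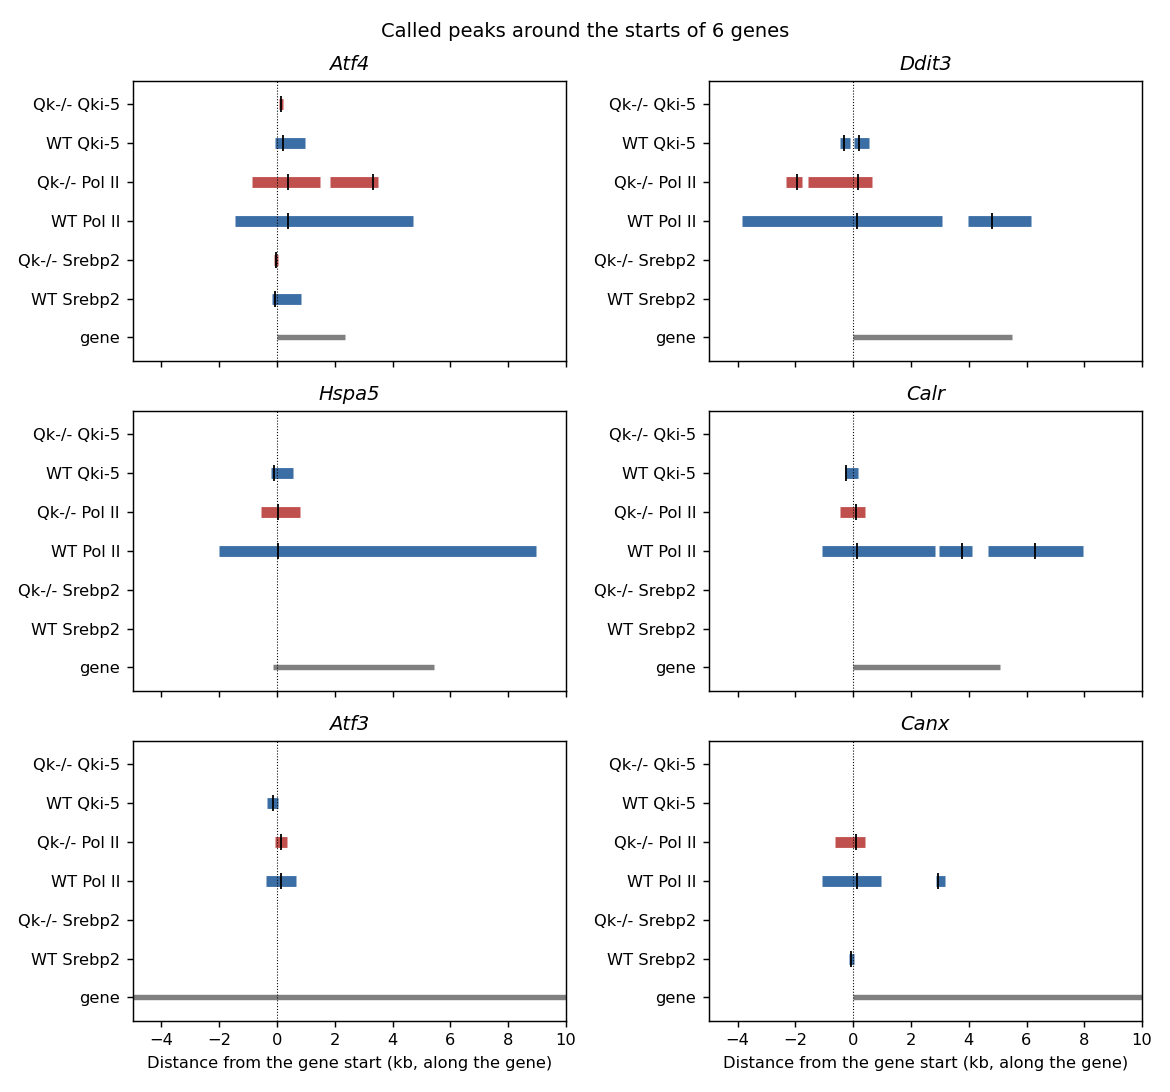
Called peaks around the starts of 6 genes. The horizontal axis is the distance in kb along the gene from the TSS nearest to the WT Pol II summit, bars are peaks that overlap the gene or its promoter (red for *Qk*-/-, blue for WT), ticks are summits and the gray bar is the gene, cut at the edges. *Atf4* has bars in all 6 lists, with Srebp2 summits before the start and Qki-5 and Pol II summits after it, and at *Hspa5* the WT Pol II peak is 10977 bp wide beside 1355 bp in *Qk*-/- cells.

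The chaperone genes differed in Qki-5 but had similar letters in their promoters. *Hspa5* (chr2:34771970-34777547, plus strand), which encodes BiP, the Hsp70 chaperone of the ER that also holds the sensors inactive, had the strongest Pol II peak of the 10 genes in both genotypes. It was at 54.1-fold in *Qk*-/- cells, place 30 of 12835, and at 95.5-fold in WT cells, place 14 of 32280. Qki-5 was not called at *Hspa5* in *Qk*-/- cells, and in WT cells it was a weak peak of 3.42-fold at place 7124 of 7539. That call was lost at a q-value under 0.01. *Calr* (chr8:84841850-84846934, minus strand), for calreticulin, the soluble counterpart of calnexin, had Pol II at 42.4-fold in *Qk*-/- cells, place 101, and at 75.0-fold in WT cells, place 46. Its Qki-5 peak, absent in *Qk*-/- cells, was at 4.60-fold in WT cells, place 5295, with the summit 239 bp upstream of the TSS. The promoter of the non-coding gene *1700122E12Rik* lies under the same *Calr* peaks.

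*Hspa5*, *Canx* and *Calr* each held an ER stress element, the site that Atf6 binds together with NF-Y. The letters searched were CCAAT and CCACG, 9 bases apart, on both strands, and each match contains a CCAAT box. This arrangement was in 3 of the 10 members' windows and in 39 of 32851 windows (0.119%). The 10 genes and the stress motifs searched here and below were both chosen for their known part in the response. These shares are therefore a description and not a test of enrichment. The element is in capitals below, with the other CCAAT box near the *Canx* start also in capitals, and is shown because no other searched motif was shared by these 3 chaperone genes and so few other promoters.
Hspa5 promoter, chr2:34772020-34772048, plus strand: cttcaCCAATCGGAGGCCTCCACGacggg
Canx promoter, chr11:50325674-50325833, minus strand: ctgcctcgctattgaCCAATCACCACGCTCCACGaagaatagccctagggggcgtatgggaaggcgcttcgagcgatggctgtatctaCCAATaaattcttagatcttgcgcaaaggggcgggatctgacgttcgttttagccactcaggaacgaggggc
Calr promoter, chr8:84846935-84847111, minus strand: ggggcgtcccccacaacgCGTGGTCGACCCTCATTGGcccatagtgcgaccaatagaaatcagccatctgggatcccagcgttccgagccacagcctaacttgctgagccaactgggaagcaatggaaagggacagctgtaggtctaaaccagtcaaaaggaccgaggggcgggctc
On the *Calr* strand shown, the element reads in reverse, starting with CGTGG and ending with ATTGG. It lay 65 to 47 bases before the RefSeq start of *Hspa5*, 145 to 127 before that of *Canx* and 162 to 144 before that of *Calr*. The *Hspa5* stretch lies inside the exon annotated from the outer of its starts, 125 bp upstream of the start nearest to the Pol II summit. A motif match describes letters of the reference and is not evidence of binding.

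*Herpud1* (chr8:94386438-94395377, plus strand), which encodes an ER membrane protein that helps in the degradation of misfolded proteins, carried the second form of the ER stress element, ATTGG and CCACG with 1 base between them. Of all windows, 0.0365% had this form, which overlaps a reverse CCAAT box. *Herpud1* also held TTNCATCA, the C/EBP-ATF composite element through which Atf4 acts, as did *Atf3* and *Trib3*, making 3 of 10 members beside 3.97% of all windows. *Ppp1r15a* held the ATF/CREB element TGACGTCA, which was in 1.79% of windows. These sites are in capitals in the stretches below, which end at or near the gene starts that carry the Pol II peaks.
Herpud1 promoter, chr8:94386309-94386428, plus strand: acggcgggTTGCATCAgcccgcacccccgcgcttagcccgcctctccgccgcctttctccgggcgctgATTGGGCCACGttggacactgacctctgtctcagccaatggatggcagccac
Atf3 promoter, chr1:191183341-191183453, minus strand: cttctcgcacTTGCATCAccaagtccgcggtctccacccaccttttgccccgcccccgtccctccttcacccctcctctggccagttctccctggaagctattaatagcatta
Ppp1r15a promoter, chr7:45526269-45526328, minus strand: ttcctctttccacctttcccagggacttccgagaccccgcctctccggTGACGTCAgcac
The unfolded protein response element TGACGTGG was in none of the members' windows and in 0.676% of all windows, and the GC box GGGCGG was in 5 of 10 and in 35.7%. All were searched on both strands, and TGACGTGG and TGACGTCA begin with the same 6 letters.

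The other transcription factor genes of the response differed from each other in Pol II and in Qki-5. *Ddit3* (chr10:127290774-127296288, plus strand), for the factor Chop that promotes cell death under lasting stress, had Pol II at 22.8-fold in *Qk*-/- cells, place 669 of 12835, and at 56.1-fold in WT cells, place 162 of 32280. It was the promoter with the strongest WT Qki-5 peak among the 10, at 7.27-fold and place 1065 of 7539, 202 bp downstream of the TSS, with a further WT Qki-5 peak of 6.63-fold 318 bp upstream. No Qki-5 peak was called there in *Qk*-/- cells. Part of these peaks also lies on the promoters of *Mbd6*, *Gm20492* and *Gm4189*, so they cannot be assigned to *Ddit3* alone. The annotation holds another identifier named *Ddit3*, and its start was nearer to the Pol II summit, at 116 bp in *Qk*-/- cells and 60 bp in WT cells, than the start used here, at 171 bp in *Qk*-/- cells and 115 bp in WT cells.

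*Xbp1* (chr11:5520659-5525893, plus strand), whose spliced mRNA encodes an activator of chaperone and degradation genes, had Pol II at 16.0-fold in *Qk*-/- cells, place 1905, and at 27.8-fold in WT cells, place 1678. It had neither Qki-5 nor Srebp2 in either genotype. Along the gene, *Qk*-/- cells had 1 further Pol II peak of 5.97-fold, and WT cells had 3, of 4.28-fold, 5.23-fold and 5.87-fold.

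*Atf3* (chr1:191170296-191218039, minus strand), a stress-induced factor that also behaves as an immediate early gene, had the widest gap in Pol II rank among the members. Its peak was at 7.84-fold in *Qk*-/- cells, place 6914 of 12835 and 386 bp wide, and at 47.0-fold in WT cells, place 291 of 32280 and 1027 bp wide. In *Qk*-/- cells the peak was therefore below the list's median of 8.43-fold. All *Atf3* peaks lay at the inner of its 2 annotated starts, and none was called in any list within 2 kb of the other, 34699 bp upstream. Qki-5 was not called there in *Qk*-/- cells and was at 5.81-fold in WT cells, place 2823 of 7539, with the summit 149 bp upstream of the inner start.

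The genes that feed back on the response lay at opposite ends of the Pol II range. *Ppp1r15a* (chr7:45522916-45526268, minus strand), for Gadd34, the phosphatase subunit that reverses eIF2 phosphorylation, had Pol II at 41.5-fold in *Qk*-/- cells, place 107 of 12835, and at 63.6-fold in WT cells, place 101 of 32280. The peak also overlapped the promoter of *Plekha4*. *Trib3* (chr2:152337422-152344032, minus strand), a pseudokinase that Atf4 and Chop induce, had no Pol II peak in *Qk*-/- cells and a pair of weak promoter peaks in WT cells. The stronger, at 3.34-fold and place 29809 of 32280, it shared with *Gm14164*, and the other, at 2.93-fold and place 31739, lay 803 bp downstream of the TSS. A fold of at least 5 would have removed both. *Herpud1* had Pol II at 19.2-fold in *Qk*-/- cells and 19.3-fold in WT cells, but these folds stood at place 1137 of 12835 in *Qk*-/- cells and at place 3975 of 32280 in WT cells. The *Herpud1* peak lay also over the promoter of *Gm15890*. Neither Qki-5 nor Srebp2 was called at these 3 genes in either genotype.

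Of the WT promoter peaks of the 10 genes, 9 of 10 Pol II peaks were kept in *Qk*-/- cells, against 60.9% of all 16000 WT Pol II promoter peaks. The share kept depended on strength: of WT Pol II promoter peaks in the top 10% of the list by fold, which held 8 of the members, 99.7% were kept, and in the bottom 10%, which held *Trib3*, 5.47% were kept. The 9 of 10 members are to be read against these shares. Of the 5 WT Qki-5 peaks, that of *Atf4* was kept, against 4.53% of 4594 WT Qki-5 promoter peaks. Of the 2 WT Srebp2 peaks, that of *Atf4* was kept, against 27.0% of 63.

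Since the WT Pol II list was longer, Pol II ranks were also set against a common base, the 12723 genes with a Pol II promoter peak in both genotypes (the common, or shared-promoter, percentile). This comparison was chosen after seeing the data. In it, *Hspa5* was at the percentile 99.6 in *Qk*-/- cells and 99.9 in WT cells, and *Calr* at 98.7 in *Qk*-/- cells and 99.5 in WT cells. *Ppp1r15a* was at 98.6 in both *Qk*-/- and WT cells, and *Atf4* at 99.6 in *Qk*-/- cells and 98.8 in WT cells. These 4 genes held their places near the top. *Xbp1* was at 78.4 in *Qk*-/- cells and 80.6 in WT cells, *Ddit3* at 92.0 in *Qk*-/- cells and 97.7 in WT cells, and *Canx* at 65.4 in *Qk*-/- cells and 77.8 in WT cells. All 3 differences were within the quartiles of all genes, which were -13.8 and 14.5 points for *Qk*-/- minus WT.

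*Atf3* and *Herpud1* were outside that range, in opposite directions. *Atf3* stood at 30.4 in *Qk*-/- cells and 96.0 in WT cells, a difference of -65.6 points, and 102 genes (0.802%) had a more negative one. *Herpud1* stood at 86.7 in *Qk*-/- cells and 56.9 in WT cells, a difference of 29.8 points, and 1415 genes (11.1%) had a larger one. Ranked by the −log10 q-value in place of fold, the differences were -26.6 for *Atf3* and 4.43 for *Herpud1*, so the size of both depended on the measure. With 1 library per genotype, the spread of such differences between replicates is unknown.

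**Figure D3:**
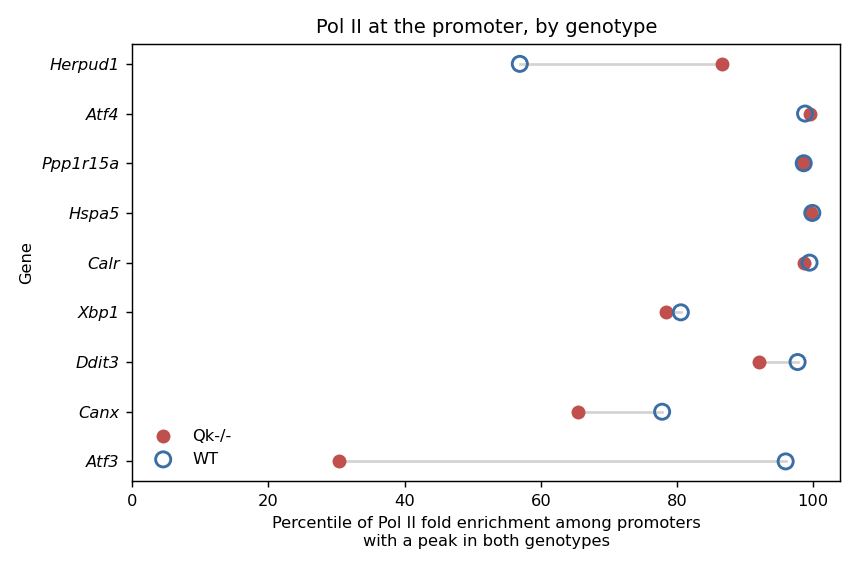
Percentile of Pol II fold enrichment (horizontal axis) in *Qk*-/- cells (filled red) and WT cells (open blue) among the 12723 genes with a Pol II promoter peak in both genotypes, for the 9 members with both. *Hspa5*, *Calr*, *Ppp1r15a* and *Atf4* lie above 98 in both genotypes, and *Atf3* lies at 30.4 in *Qk*-/- cells and 96.0 in WT cells.

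Pol II summits kept their positions between genotypes. At the 9 genes with a Pol II peak in both, the summits were 7 to 56 bp apart, with a median of 14 bp. The same distance over all genes with a peak in both is not given here. The median summit was 109 bp downstream of the nearest TSS in *Qk*-/- cells (9 genes) and 118 bp downstream in WT cells (10 genes), against 56 bp in *Qk*-/- cells and 53 bp in WT cells for all genes. At *Ppp1r15a*, which has 2 annotated starts, the summit was 15 bp upstream of the inner start in *Qk*-/- cells and 27 bp upstream in WT cells. The outer start lies 122 bp upstream of the inner one. Both summits were thus downstream of the outer start, within the annotated untranslated region. In WT cells, Qki-5 summits were 87 to 360 bp from the Pol II summit of the same promoter (median 184 bp), upstream of it at *Atf4*, *Hspa5*, *Atf3* and *Calr* and downstream at *Ddit3*. The Srebp2 summit was 439 bp upstream of the Pol II summit at *Atf4* and 198 bp upstream at *Canx*.

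The share of each gene under Pol II peaks, its promoter included, was higher in WT cells at all 10 members, by little at some. The Pol II list was also longer in WT cells, with 32280 peaks beside 12835 in *Qk*-/- cells. How many of all genes had a higher share in WT cells is not given here. At *Hspa5*, the share was 16.4% in *Qk*-/- cells and 100% in WT cells, where a single peak of 10977 bp ran past both gene ends. It was 85.7% in *Qk*-/- cells and 100% in WT cells at *Atf4*. It was 7.71% in *Qk*-/- cells and 86.5% in WT cells at *Calr*, and 12% in *Qk*-/- cells and 83.8% in WT cells at *Ddit3*. *Herpud1* differed little, with 14.7% in *Qk*-/- cells and 15.5% in WT cells. The other members ranged up to 28.0% in *Qk*-/- cells and 59.3% in WT cells.

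The median over the 10 genes was 13.4% in *Qk*-/- cells and 57.5% in WT cells, against 1.87% in *Qk*-/- cells and 4.11% in WT cells for protein-coding genes with a Pol II promoter peak. Most of the members are short, and among genes of at most 10 kb the 8 members had medians of 15.1% in *Qk*-/- cells and 71.6% in WT cells, against 9.45% in *Qk*-/- cells and 23.5% in WT cells for all such genes. Outside the promoters, the medians over the 10 genes were 0% in *Qk*-/- cells and 29.2% in WT cells, with no value over all genes beside them. *Atf4*, which extends little past its promoter, was at 100% there in both *Qk*-/- and WT cells, and *Atf3*, *Herpud1* and *Trib3* were at 0% in both. The last base of the gene lay under a peak at *Atf4* in *Qk*-/- cells, and at *Atf4*, *Ddit3*, *Hspa5*, *Ppp1r15a*, *Canx* and *Calr* in WT cells. At *Canx*, the peak over the gene end also touched the promoter of the neighbor *Maml1*, and at *Calr* it reached beyond the gene. Promoter peaks made up 85.8% of the Pol II list in *Qk*-/- cells and 49.6% in WT cells, and the part of list length and depth in these shares was not tested.

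**Figure D4:**
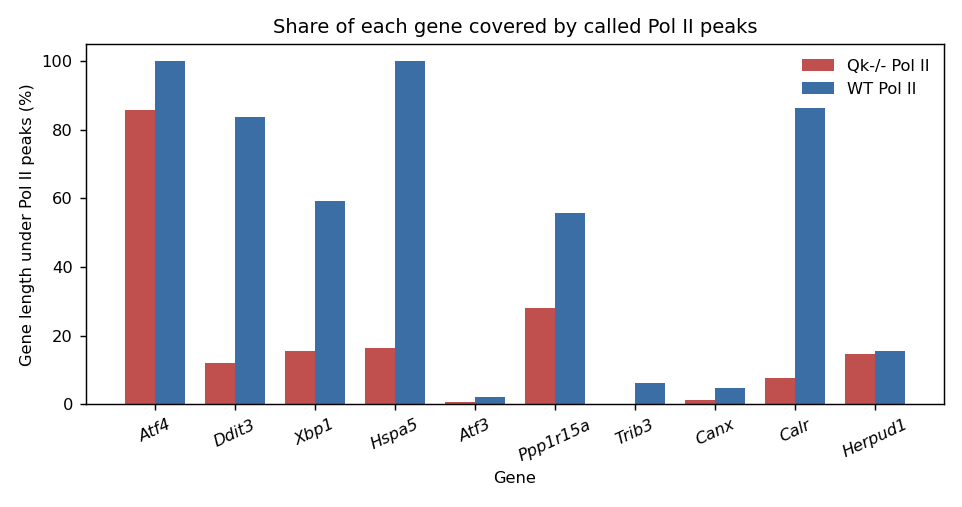
Percent of each gene, from annotated start to end, under called Pol II peaks in *Qk*-/- cells (red) and WT cells (blue), 1 library each. *Atf4* is largely covered in both genotypes, *Hspa5*, *Calr* and *Ddit3* mostly in WT cells, and *Herpud1* at 14.7% in *Qk*-/- cells and 15.5% in WT cells.

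The members were set beside 71 other genes of the response and of neighboring stress pathways, in 6 lists. Pol II promoter peaks were called at 65 of the 71 in *Qk*-/- cells and at all 71 in WT cells, with median percentiles of 71.4 in *Qk*-/- cells and 89.3 in WT cells, below those of the 10 members. Srebp2 was called at none of them in either genotype, so that *Atf4* and *Canx* were the genes of the combined lists with Srebp2. Qki-5 was called at 1 of the 71 in *Qk*-/- cells and at 32 in WT cells. The 1 was *Sel1l*, an adaptor of the ubiquitin ligase Hrd1, at 5.76-fold and place 337 of 427, and it had no WT Qki-5 peak. The background for Qki-5, here and in the lists below, was 0.503% of all genes in *Qk*-/- cells. In WT cells, it was 34.1% of the genes with a Pol II promoter peak. For Pol II, the background was 46.5% of protein-coding genes in *Qk*-/- cells and 54.1% in WT cells. At the 65 genes with Pol II in both genotypes, the median difference in the common percentile was -0.42 points, with 30 genes higher and 35 lower in *Qk*-/- cells, beside a median of 0.33 over all genes.

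Among the sensors and regulators of eIF2, *Eif2b5*, a subunit of the eIF2 exchange factor, was at 17.6-fold in *Qk*-/- cells and 45.8-fold in WT cells, and *Mbtps1*, the protease that cleaves Atf6 and Srebp2, at 11.8-fold in *Qk*-/- cells and 26.6-fold in WT cells. The lowest of this list in WT cells was *Mbtps2*, which makes the next cut, with 6.78-fold in *Qk*-/- cells and 9.76-fold in WT cells. WT Qki-5 was called at 4 of the 12, with the highest fold, 6.87, at *Eif2s1*, the phosphorylated subunit of eIF2. The median difference in the common percentile was 4.34 points over 12 genes, 7 higher and 5 lower in *Qk*-/- cells, and -2.11 points by −log10 q-value.

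Of 16 Atf4-responsive genes, 13 had Pol II in *Qk*-/- cells and 16 in WT cells. At 11 of the 13 the common percentile was lower in *Qk*-/- cells, with a median difference of -7.20 points. By −log10 q-value, 10 of the 13 were lower, with a median of -1.36 points. The median over all genes was 0.33 points by fold. How many of all genes were lower in *Qk*-/- cells is not given here. *Ddit4*, an inhibitor of mTORC1, was at 25.2-fold in *Qk*-/- cells and 81.2-fold in WT cells, and *Cebpb*, a partner of Atf4, at 37.8-fold in *Qk*-/- cells and 64.9-fold in WT cells. *Shmt2*, a mitochondrial enzyme of serine use, had no peak in *Qk*-/- cells and the lowest of the list in WT cells, 5.40-fold. WT Qki-5 was called at 9 of the 16, with the highest fold, 6.16, at *Mthfd2*.

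Of 14 ER chaperone and folding genes, 13 had Pol II in *Qk*-/- cells and 14 in WT cells. *P4hb*, a protein disulfide isomerase, was at 14.9-fold in *Qk*-/- cells and 61.0-fold in WT cells, and *Hsp90b1*, the Hsp90 of the ER, at 22.4-fold in *Qk*-/- cells and 41.0-fold in WT cells. *Dnajb11*, a cochaperone of BiP, was the lowest in WT cells, with 6.78-fold in *Qk*-/- cells and 13.3-fold in WT cells. WT Qki-5 was called at 5 of the 14, with the highest fold, 6.16, at *Pdia6*. The median difference was -2.63 points over 13 genes, 6 higher and 7 lower in *Qk*-/- cells.

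The 8 genes of ER-associated degradation, the pathway of *Herpud1*, had the largest median difference of the 6 lists. It was 35.7 points over 7 genes, 5 of them higher and 2 lower in *Qk*-/- cells. The lists were chosen with earlier results of these data known, so this ranking of lists is a description and not a test. The higher ones were led by *Derl2* at 50.5 points, *Sel1l* at 50.4, *Edem1* at 38.5 and *Syvn1*, the ubiquitin ligase Hrd1, at 35.7. Ranked by −log10 q-value, the median was 16.6 points, with 4 genes higher and 3 lower in *Qk*-/- cells. *Os9*, a lectin that recognizes misfolded glycoproteins, was at 11.5-fold in *Qk*-/- cells and 23.0-fold in WT cells. *Derl1*, a channel protein, was at 8.06-fold in *Qk*-/- cells and 19.5-fold in WT cells, and was the gene of the list with the highest WT Qki-5 fold, 6.63. *Derl3* was the lowest, with no peak in *Qk*-/- cells and 3.28-fold in WT cells. By fold, *Os9* and *Derl1* were the 2 genes with lower percentiles in *Qk*-/- cells. The genes that led the rise stood low in WT cells, at common percentiles of 6.51 (*Derl2*), 19.5 (*Sel1l*), 14.2 (*Edem1*) and 20.7 (*Syvn1*). *Os9* stood at 69.3 and *Derl1* at 58.0 in WT cells. A low WT percentile leaves more room to rise than to fall, and no comparison with genes of similar WT percentile was made.

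**Figure D5:**
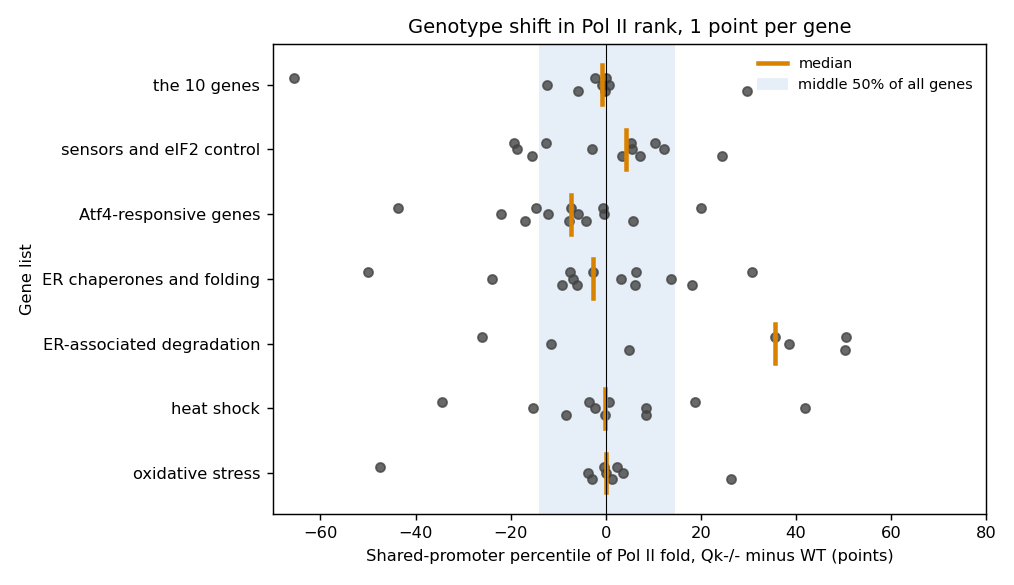
Difference in the common Pol II percentile, *Qk*-/- minus WT (horizontal axis, points), for each gene of the 10 members and the 6 pathway lists (rows, 1 point per gene, small vertical offsets for legibility). Orange bars are medians and the shaded band runs between the quartiles of all 12723 genes, -13.8 and 14.5. The members' median lies near 0 with *Atf3* at -65.6 and *Herpud1* at 29.8, and the median of the ER-associated degradation list is at 35.7.

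The stress lists outside the ER had medians near 0. Of 12 heat shock genes, 11 had Pol II in *Qk*-/- cells and 12 in WT cells, with a median difference of -0.14 points. *Hsp90aa1*, a cytosolic Hsp90, was at 29.4-fold in *Qk*-/- cells and 73.6-fold in WT cells, and *Hspa8*, the constitutive Hsp70, at 43.8-fold in *Qk*-/- cells and 66.5-fold in WT cells. The lowest was *Hsph1*, a nucleotide exchange factor of Hsp70, with no peak in *Qk*-/- cells and 13.7-fold in WT cells. The strongest WT Qki-5 peak of all 6 lists, at 13.7-fold, lay between *Hspd1* and *Hspe1*, the genes of the mitochondrial chaperonin, which share a promoter. *Hspa1a* and *Hspa1b* are near-identical copies, so their peaks are uncertain.

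All 9 oxidative stress genes had Pol II in both genotypes, with a median difference of 0.12 points. *Gclc*, an enzyme of glutathione synthesis, was at 48.6-fold in *Qk*-/- cells and 71.0-fold in WT cells, and *Sqstm1*, an autophagy receptor, at 28.1-fold in *Qk*-/- cells and 70.8-fold in WT cells. *Nqo1* was the lowest, with 4.79-fold in *Qk*-/- cells and 5.03-fold in WT cells. *Nfe2l2*, for the regulator Nrf2, had the highest WT Qki-5 fold of the list, 9.74.

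*Atf3* was also set beside 12 immediate early genes, which are transcribed within minutes of a stimulus. Pol II was called at 9 of them in *Qk*-/- cells and at 12 in WT cells, and Qki-5 at 0 in *Qk*-/- cells and at 8 in WT cells. *Junb* was at 29.3-fold in *Qk*-/- cells and 112-fold in WT cells, place 5 of the WT list, and *Ier2* at 33.7-fold in *Qk*-/- cells and 63.8-fold in WT cells. *Fosb* was the lowest, with no peak in *Qk*-/- cells and 4.19-fold in WT cells, and *Ier3* had the highest WT Qki-5 fold, 6.99. The median difference in the common percentile over the 9 genes was -1.28 points, with 3 higher and 6 lower in *Qk*-/- cells, against the -65.6 of *Atf3*. That median leaves out *Fosb*, *Egr2* and *Nr4a1*, which were not called in *Qk*-/- cells. *Egr2* was at 22.6-fold and *Nr4a1* at 13.9-fold in WT cells, so a strong WT peak without a *Qk*-/- counterpart also occurred in this list.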

How the data were processed

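ChIP-seq peaks of Qki-5, Pol II and Srebp2 were analysed, 1 list for each antibody in *Qk*-/- and in WT oligodendrocytes, as grouped by the sample titles. Input libraries had no list and were not used here. By the methods, the authors trimmed the reads, aligned them with Bowtie2, removed duplicates and ran MACS2 2.1.2 per library with the matching input as control (mm10, q-value threshold 0.05), while the submitters' processing notes name Bowtie 1.2.2. The fold enrichment deposited by the authors is the ratio of the summit pileup to the local background. The deposited −log10 p-value and −log10 q-value come from the same caller, and the deposited score is the whole part of 10 times the −log10 q-value, as was checked. Fold enrichment is not on a common scale between libraries, since depth, background and input differ.

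Python 3.11.15 was used with numpy 2.4.6, pandas 2.3.3 and, for figures, matplotlib 3.10.9. A promoter was the region within 2000 bp of a GENCODE M21 basic TSS, a peak belonged to every promoter it overlapped by at least 1 bp, and the strongest peak by fold stood for the promoter. Ranks and percentiles were taken within a list. Overlap calculations were tested on simulated data. RefSeq held promoter windows for all 10 genes, with starts up to 28 bp from the GENCODE starts. Motif positions count from the RefSeq start.

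The members and the gene lists were chosen with earlier results of these data known. From each list, the named genes were the pair with the highest and the 1 with the lowest WT Pol II fold, the 1 with the highest WT Qki-5 fold, every gene with Srebp2 and every gene sharing a promoter peak with a member. Not all genes under this rule are reported. *Sel1l*, *Derl2*, *Edem1*, *Syvn1*, *Egr2*, *Nr4a1*, *Hspa1a* and *Hspa1b* were named after their values were seen. Alternatives were promoter windows of 1 kb and 2.5 kb, a q-value under 0.01, a fold of at least 5, summits inside the promoter, RefSeq starts, the nearest TSS, ranks by −log10 q-value, other overlap rules, the strongest WT peaks, and genes without their promoters. The common percentile, the protein-coding and Pol II-bound backgrounds, the split of kept peaks by strength, the short genes and the separate forms of the ER stress element were added after seeing the data.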

Additional observations from a re-analysis of the deposited data

How the results depend on the processing

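Each list came from 1 library, so no difference between genotypes could be tested, and a peak that was not called is not shown to be absent. No paired analysis was possible because there was 1 library per antibody and genotype. Of the values recomputed under other settings, 107 stayed within limits (counts within 1.5 times, percentages under peaks, summits and percentile differences within 5, percentiles within a binomial interval), 17 moved further and 2 changed sign. With a fold of at least 5, 3 members had a WT Qki-5 peak, *Hspa5* and *Calr* being lost, *Trib3* was lost from WT Pol II, the *Atf3* difference was -70.8 points, and the median percentiles were 73.6 (WT Qki-5) and 99.5 (WT Pol II). With a q-value under 0.01, *Hspa5* was lost from WT Qki-5 and the median percentile was 67.7. With the nearest TSS only, *Calr* was lost from WT Qki-5 (median 67.7), and *Ddit3* was lost from Pol II in both genotypes to the other identifier of that name (WT Pol II median 99.1). Ranked by −log10 q-value, the medians were 95.4 in *Qk*-/- cells and 99.1 in WT cells for Pol II and 57.1 for WT Qki-5, the *Atf3* difference was -26.6 and that of *Herpud1* 4.43, the median differences were 16.6 for ER-associated degradation, -1.36 for Atf4-responsive genes and -2.11 for sensors and eIF2 control (a change of sign), and the median WT Qki-5 summit was upstream of the TSS, at -149 bp, in place of 28 bp downstream. The summit median moved because *Ddit3* was then represented by its WT Qki-5 peak 318 bp upstream of the TSS. The cause of the other changes was not tested. The ranking of the pathway lists by −log10 q-value was chosen after seeing the data. With the WT list reduced to its strongest peaks, 0 members had a WT Qki-5 peak to keep, and 9 of 9 WT Pol II peaks were kept. Without promoters, the median share of the gene under Pol II peaks was 0% in *Qk*-/- cells and 29.2% in WT cells.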
